A study of Mus musculus with 14 samples.

Results

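Glypicans and syndecans are the membrane-bound families of heparan sulfate proteoglycans. The members were chosen by name: Gpc1, Gpc2, Gpc3, Gpc4, Gpc5 and Gpc6 for the glypicans and Sdc1, Sdc2, Sdc3 and Sdc4 for the syndecans, 10 of the 35275 genes in the expression tables. The rule uses family membership and no measured value, though earlier results of these data were known when the families were picked.

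RNA was sequenced from mouse KMF ovarian tumor cells, which descend from ID8 ovarian epithelial cells passaged through C57Bl6 mice, and all lines were grown without anchorage as tumorspheres for 5 days in PromoCell XF medium. KMF is the parental line with its own focal adhesion kinase (FAK, gene Ptk2; 3 samples), and FAK KO is a FAK-/- line that is 1 clone of KMF, KT13 (3 samples). KT13 was the starting point of the other 3 lines, so these lines also carry the FAK knockout of the clone. FAK-WT re-expresses lentiviral GFP-FAK (3 samples), and FAK-R454 re-expresses GFP-FAK-R454, which lacks kinase activity (2 samples). The β-catenin ΔGSK line expresses an active β-catenin (3 samples). The labels number the RNA samples as replicates. The study's methods call those of KMF independent and place them at various passages. They do not say whether the samples of the KT13 lines came from separate cultures. P-values for the KT13 lines measure the spread between these samples, which may be technical.

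A glypican is held on the outer face of the plasma membrane by a lipid anchor, whereas a syndecan spans the membrane and has a short cytoplasmic tail. Both carry long heparan sulfate chains, whose sulfation pattern sets which growth factors, Wnts and matrix proteins they bind. Syndecans act as co-receptors beside integrins in cell adhesion, and glypicans are best known for tuning Wnt, Hedgehog and FGF signals at the cell surface.

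The 14 libraries held 25390558 to 35289859 fragments assigned to genes. Values are FPKM, fragment counts divided by gene length and by the depth of the library, so levels of different genes can be set side by side per length. The epithelial markers Krt8 (160.4 to 602.2 FPKM over all samples), Krt18 and Krt19, the mesothelial markers Msln and Wt1 and the mesenchymal marker Vim were high in each line, whereas Krt7 stayed under 0.42 FPKM. The mesothelial markers Upk3b and Lrrn4 differed between lines: Upk3b averaged 31.6 FPKM in FAK-R454 and 4.03 to 8.74 in the other lines, and Lrrn4 averaged 1.14 in FAK-R454 and 0.126 to 0.332 in the others. The abundant markers moved too: Wt1 averaged 227 FPKM in β-catenin ΔGSK and 97.8 in FAK KO. Krt8 averaged 569 FPKM in FAK-WT, 317 in FAK KO and 181 in β-catenin ΔGSK, and Msln averaged 97.1, 70.2 and 47.8 in the same lines. The part of these differences in the results for members was not tested. The leukocyte markers Ptprc and Cd3e and the endothelial marker Kdr were at or near 0, and Pecam1 lay between 0.168 and 1.27 FPKM. Ptk2 mRNA was 17.6 to 20.5 FPKM in FAK KO, so the transcript was still present in the knockout clone. It was 15.1 to 15.9 in β-catenin ΔGSK, 23.9 to 24.8 in KMF, 42.3 to 45.4 in FAK-WT and 59.2 to 65.5 in FAK-R454. Ctnnb1, the β-catenin gene, averaged 214 FPKM in β-catenin ΔGSK, 145 in FAK KO, 200 in KMF, 129 in FAK-WT and 136 in FAK-R454. FAK-WT replicate 3 stood apart from its group: the chi-square per degree of freedom of its fragments against replicates 1 and 2 was 42.5 and 30.5, against 3.15 between replicates 1 and 2. KMF replicate 3 (23.8 and 29.1, against 4.59) and β-catenin ΔGSK replicate 1 (18.1 and 30.4, against 8.75) also lay apart from their groups. In FAK KO, the shared control, replicate 1 was at 22.2 and 11.4 against replicates 2 and 3, which were at 8.17 against each other. Values without FAK-WT replicate 3, KMF replicate 3 or β-catenin ΔGSK replicate 1 are given for some members and pathway genes. Each 2-fold call that changed without them is given too. No pair of samples agreed within sampling noise.

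Of the 10 members, 7 were above 1 FPKM in at least 1 line, and 3 were at or near 0 in every library. Sdc4 was at 150.6 to 202.0 FPKM over all samples, and Gpc1 was at 97.5 to 172.8. These ranges put both among the strongly expressed genes of these cells: at the mean of each line, Sdc4 lay at the 96.7 to 97.5 percentile and Gpc1 at the 94.2 to 96.6 percentile of genes above 1 FPKM. Gpc6 was the least abundant of the members expressed, at 0.151 to 2.82 FPKM.

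**Figure D1:**
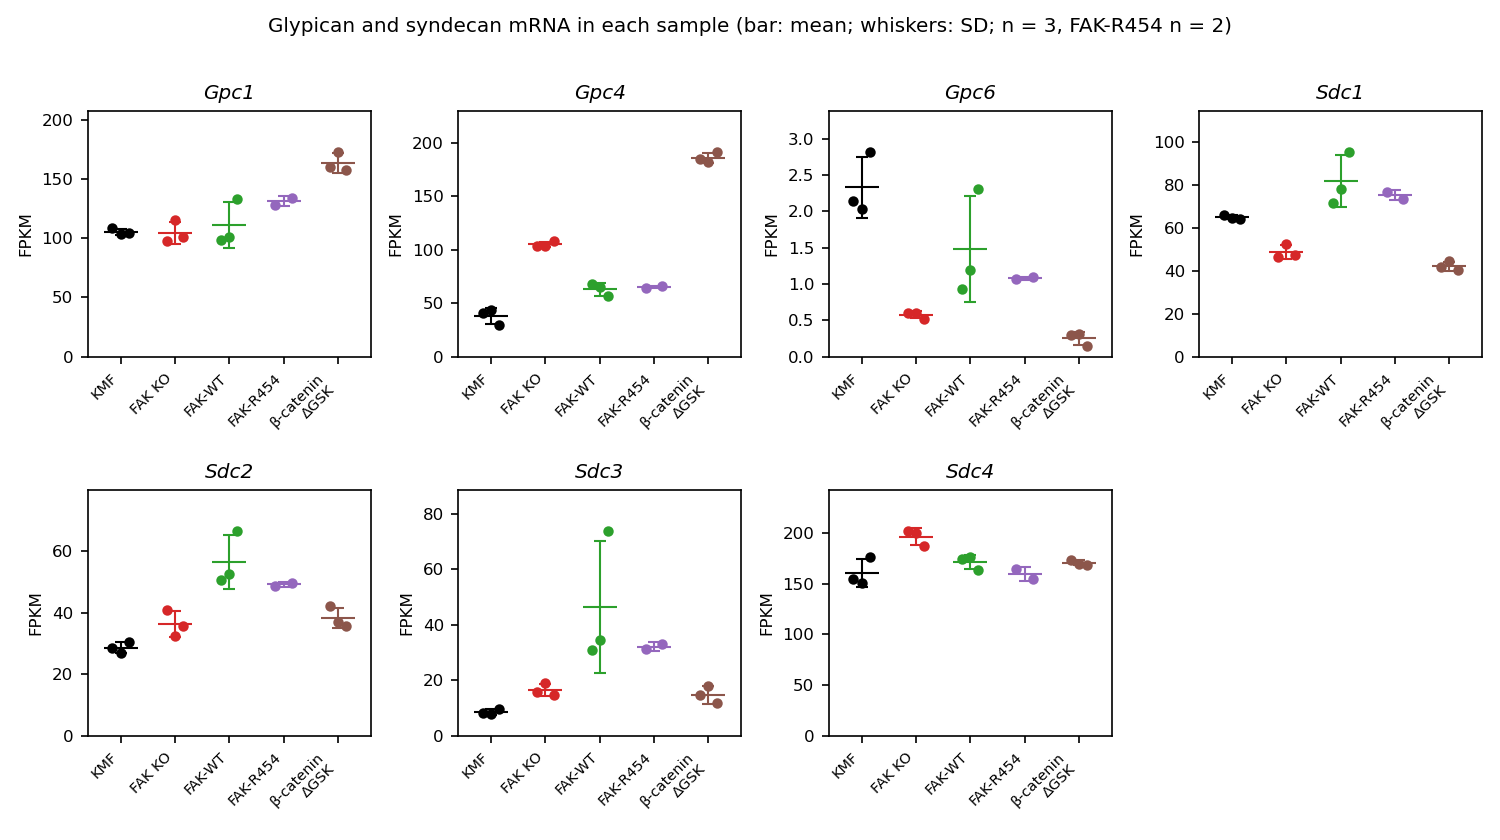
FPKM (linear axis from 0) of the 7 expressed glypican and syndecan genes in each of the 14 samples, by line. Points are samples, the horizontal bar is the mean and whiskers are SD (n = 3, FAK-R454 n = 2). Gpc4 separates β-catenin ΔGSK (182.5 to 191.4) and FAK KO (103.3 to 108.1) from the other lines, and 1 FAK-WT sample stands at 73.9 for Sdc3.

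Gpc5 had no fragment in any library, and Gpc3, a glypican lost in an overgrowth syndrome, had 1 fragment in β-catenin ΔGSK replicate 1. A count of 3 fragments, the most that a count of 0 allows, would correspond to 0.0384 to 0.0533 FPKM for Gpc3 and 0.0300 to 0.0417 FPKM for Gpc5, for counting error only. Gpc2 is listed at 0 under a gene model (chr5:138264952-138280005, minus strand, mm10) that spans Gal3st4 on the same strand, which is listed at 0 too. In the GENCODE M21 annotation Gpc2 starts at 138273655, and how fragments in overlapping genes were counted is not given in the sources used here, so the part of the wider model in its value was not tested. None of 12 housekeeping genes was at 0.

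Gpc4 was the glypican that differed most between lines in absolute level. The gene (ENSMUSG00000031119) lies on the minus strand at chrX:52053021-52165252 (mm10, protein-coding), and its product can bind Wnt and FGF ligands. KMF replicates 1 to 3 had 41.0, 43.5 and 29.9 FPKM, and the FAK KO clone had 103.3, 103.9 and 108.1. Re-expression of FAK gave 67.9, 65.5 and 56.4 FPKM in FAK-WT and 64.2 and 65.9 in FAK-R454. The β-catenin ΔGSK samples had 184.7, 182.5 and 191.4 FPKM. The lines thus formed separate steps with no overlap, except that the FAK-WT and FAK-R454 ranges overlapped, and the highest mean was 4.88-fold the lowest.

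The RefSeq promoter table (GRCm38.p6) was matched by 7 of the 10 members; Gpc1, Gpc6 and Sdc2 were not matched. Both strands of each window, 250 bases before to 50 bases after the RefSeq start, were searched for the letters CTTTGA (TCF/LEF, present in 16% of all 32851 windows), TGANTCA (AP-1, 7.81%) and GGAATG (TEAD, 14.7%). The only match among the 7 members was in Gpc4, where GGAATG lay on the other strand at -131 to -126 from the RefSeq start. The surrounding 30 bases are shown because they hold that match, with the matched letters in capitals, at chrX:52165037-52165066 on the minus strand, which is inside the gene span of the deposited table:
Gpc4: gggtcccgcgccCATTCCacgcctttttcc
A match describes these letters only and is not evidence of a bound site.

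Gpc6 ran in the opposite order to Gpc4 at a far lower level. The gene (ENSMUSG00000058571, chr14:116925297-117979529, plus strand) encodes a glypican with roles in Hedgehog and Wnt signaling during skeletal growth. KMF had 2.14, 2.04 and 2.82 FPKM and FAK KO had 0.605, 0.608 and 0.519. FAK-WT had 0.934, 1.198 and 2.32 FPKM and FAK-R454 had 1.07 and 1.09, while β-catenin ΔGSK had 0.292, 0.309 and 0.151. Each FAK-WT, FAK-R454 and KMF sample was above each FAK KO sample, and each β-catenin ΔGSK sample was below each FAK KO sample. Over the 14 samples the Pearson correlation of log2 Gpc4 and log2 Gpc6 was -0.97, a description over samples that share 5 lines and 1 clone of origin.

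**Figure D2:**
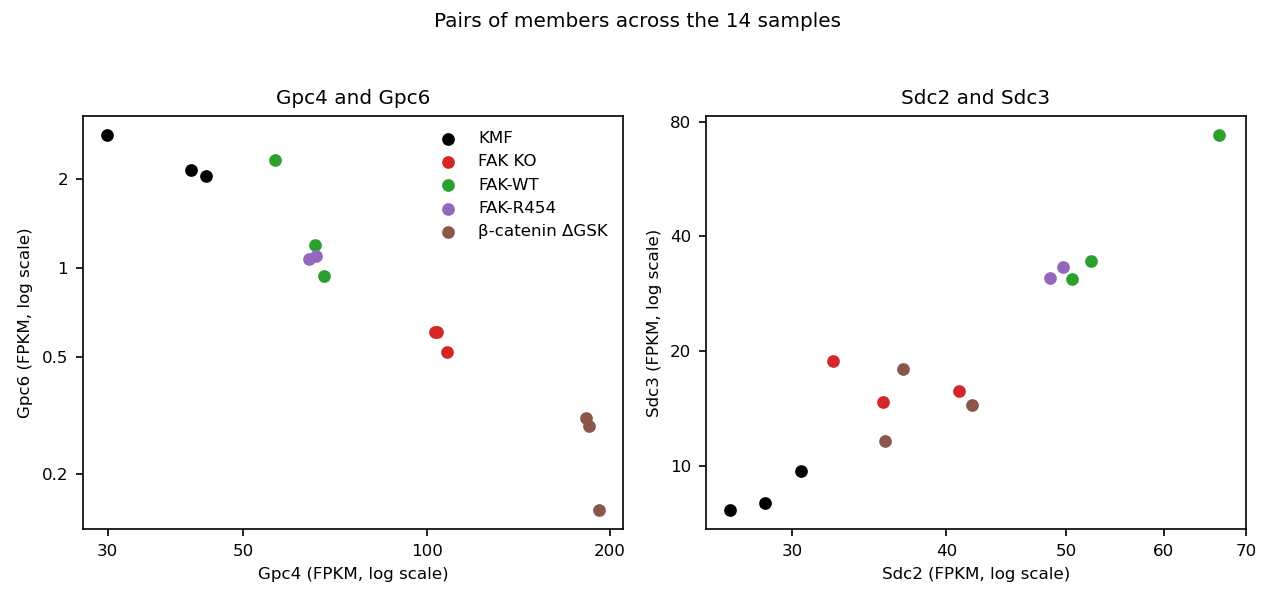
FPKM of Gpc4 against Gpc6 (left) and of Sdc2 against Sdc3 (right), both axes on log scales; each point is 1 of the 14 samples, coloured by line. Gpc6 declines as Gpc4 rises from 29.9 to 191.4 FPKM, and the FAK-WT sample with the highest Sdc2 (66.5) also has the highest Sdc3 (73.9).

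Gpc1, a glypican found raised in several carcinomas, was flatter. The gene (ENSMUSG00000034220) lies at chr1:92831645-92860779 on the plus strand. KMF had 108.3, 104.0 and 104.2 FPKM and FAK KO had 97.5, 115.1 and 101.2, so these lines overlapped. FAK-WT had 98.6, 100.8 and 133.2 FPKM and FAK-R454 had 128.4 and 134.4. Only the β-catenin ΔGSK samples, with 160.3, 172.8 and 157.6, lay apart from every other line.

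Sdc1, the main syndecan of epithelia, was highest where FAK was present. The gene (ENSMUSG00000020592) lies at chr12:8771323-8793715 on the plus strand. KMF had 65.9, 64.7 and 64.2 FPKM, FAK-WT had 71.8, 78.3 and 95.4, and FAK-R454 had 77.0 and 73.6. FAK KO had 46.4, 52.3 and 47.4 FPKM and β-catenin ΔGSK had 42.0, 44.4 and 40.3. The lines with FAK did not overlap the lines without it, and neighbours in the order overlapped only for FAK-WT and FAK-R454.

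Sdc3, a syndecan best known from nerve and muscle, had the widest range of the syndecans. The gene (ENSMUSG00000025743) lies at chr4:130792537-130826319 on the plus strand. KMF had 8.01, 7.66 and 9.70 FPKM, FAK KO had 15.7, 18.9 and 14.7, and β-catenin ΔGSK had 14.5, 17.98 and 11.6. FAK-WT had 31.0, 34.6 and 73.9 FPKM and FAK-R454 had 31.1 and 33.2. Both lines with re-expressed FAK were above every other sample, the parental line was below every other sample, and FAK-WT replicate 3 was far above the other FAK-WT samples.

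The 5′ flanks of Sdc3 and Sdc1 are shown because these were the matched syndecans with the largest changes after FAK re-expression. Each run ends at the base before the deposited gene start, at chr4:130792287-130792536 for Sdc3 and chr12:8771146-8771322 for Sdc1 (plus strand, RefSeq GRCm38.p6):
Sdc3: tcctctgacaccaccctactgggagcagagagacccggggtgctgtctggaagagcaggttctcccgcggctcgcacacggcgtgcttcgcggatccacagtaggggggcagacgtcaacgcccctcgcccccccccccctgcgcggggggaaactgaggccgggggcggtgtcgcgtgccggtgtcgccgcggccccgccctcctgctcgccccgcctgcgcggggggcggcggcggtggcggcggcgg
Sdc1: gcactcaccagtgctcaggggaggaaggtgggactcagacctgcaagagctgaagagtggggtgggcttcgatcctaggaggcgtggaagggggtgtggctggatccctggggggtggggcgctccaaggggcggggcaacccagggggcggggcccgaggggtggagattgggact
The GC content was 76.4% for the Sdc3 run and 68.4% for the Sdc1 run, and none of the 3 motifs searched is in either window.

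Sdc2, a syndecan of mesenchymal cells, followed Sdc3 at a smaller range. The gene (ENSMUSG00000022261) lies at chr15:32920723-33034730 on the plus strand. KMF had 28.5, 26.7 and 30.5 FPKM, FAK KO had 40.9, 32.4 and 35.5, and β-catenin ΔGSK had 42.0, 36.9 and 35.7. FAK-WT had 50.6, 52.4 and 66.5 FPKM and FAK-R454 had 48.6 and 49.8. The lines with re-expressed FAK were above all others and did not overlap each other, FAK KO and β-catenin ΔGSK overlapped, and KMF was lowest. The correlation of log2 Sdc2 and log2 Sdc3 over the 14 samples was 0.95, again over samples that share lines.

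Sdc4, the syndecan found in focal adhesions, was the most abundant member in each line except β-catenin ΔGSK, where Gpc4 was higher. The gene (ENSMUSG00000017009) lies at chr2:164424247-164443887 on the minus strand. KMF had 155.1, 150.6 and 176.0 FPKM, FAK KO had 202.0, 200.5 and 186.8, and FAK-WT had 174.0, 176.7 and 163.3. FAK-R454 had 164.3 and 154.4 FPKM and β-catenin ΔGSK had 173.8, 169.7 and 168.6. FAK KO was above every other line, and the other lines overlapped as neighbours in the order. The means spanned only 1.23-fold.

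The summed FPKM of the families showed how their make-up differed. The glypican sum was 146 ± 7.9 (SD, n = 3) in KMF, 210 ± 9.0 (n = 3) in FAK KO, 176 ± 14 (n = 3) in FAK-WT, 198 ± 5.4 (n = 2) in FAK-R454 and 350 ± 5.2 (n = 3) in β-catenin ΔGSK. Gpc4 made up 26.01% ± 3.7 of that sum in KMF, 36.4% ± 6.1 in FAK-WT, 32.9% ± 0.29 in FAK-R454, 50.04% ± 2.4 in FAK KO and 53.2% ± 1.8 in β-catenin ΔGSK, and Gpc1 made up most of the rest. The parental line and both lines with re-expressed FAK therefore carried mostly Gpc1 message, and the knockout clone carried Gpc1 and Gpc4 at a ratio near parity, 1.01 ± 0.09 (SD, n = 3). Among the syndecans, Sdc4 made up 65.9% ± 0.27 of the sum in FAK KO and 48.6% ± 6.7 in FAK-WT, while Sdc3 made up 5.51% ± 0.60 and 12.7% ± 5.1. In KMF, Sdc4 made up 61.1% ± 1.4 and Sdc3 3.21% ± 0.21, so the Sdc3 share of the parental line was below that of FAK KO. Sdc4 and Sdc3 made up 50.4% ± 1.1 and 10.2% ± 0.70 in FAK-R454 and 64.3% ± 1.4 and 5.52% ± 1.1 in β-catenin ΔGSK. The FAK-WT shares lean on replicate 3, where Sdc3 was 18.5% and Sdc4 40.9%, against 9.46% and 10.1% for Sdc3 and 53.2% and 51.7% for Sdc4 in replicates 1 and 2. Gpc4 was 29.4% of the glypican sum in FAK-WT replicate 3 and 40.6% and 39.1% in the others.

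**Figure D3:**
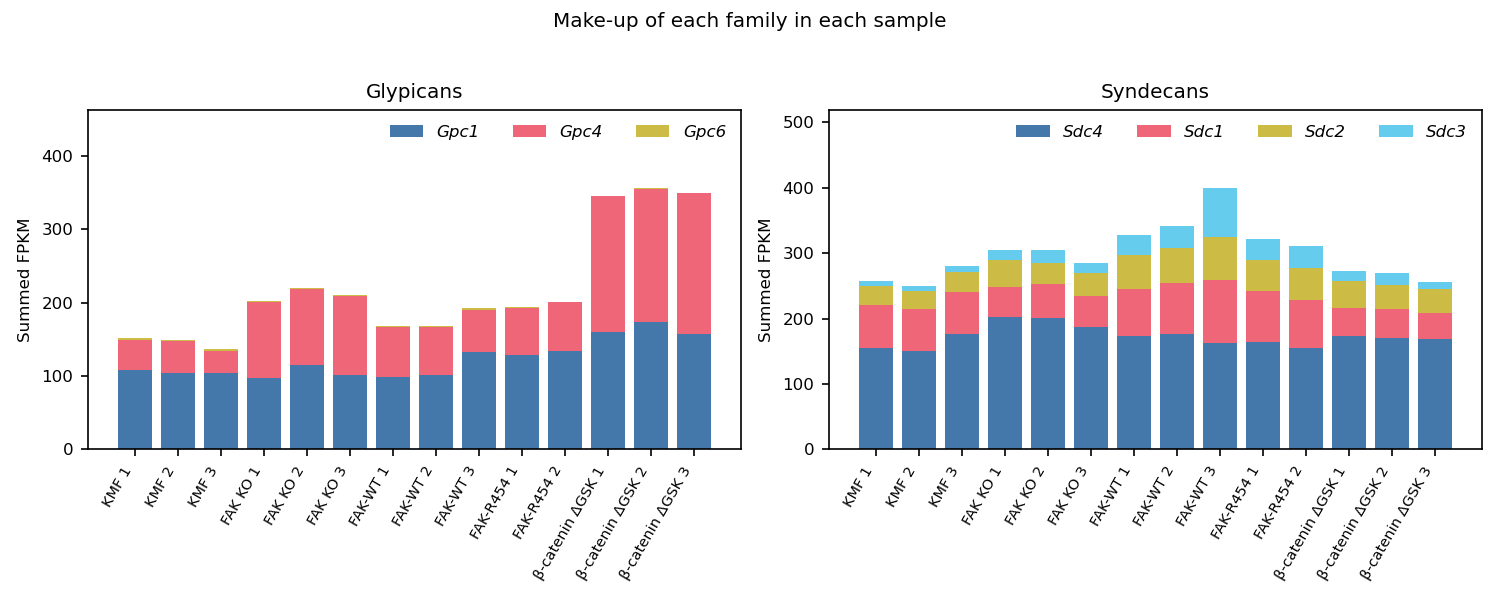
Summed FPKM (linear axis from 0) of the expressed glypicans (left) and of the syndecans (right) in each of the 14 samples, stacked by gene. The Gpc4 block is largest in the β-catenin ΔGSK samples, where the glypican sum reaches 345.4 to 355.6, and the Sdc3 block is largest in FAK-WT replicate 3.

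The first comparison asked how FAK-WT differed from the knockout clone. The lines derived from KT13 were made by viral transduction, drug selection and enrichment by flow cytometry, and no vector control is among the samples. Effects of these steps and of the transgene cannot be told apart. Relative to FAK KO, FAK-WT had more Sdc3, Gpc6, Sdc1 and Sdc2 message and less Gpc4 and Sdc4 message, and Gpc1 did not pass the test. In bulk RNA, fewer cells with a message and less message per cell cannot be told apart. Changes are log2 differences of FPKM + 0.1, a scale that understates the change of low genes such as Gpc6, tested with limma and adjusted over all genes tested. Sdc3 was 2.62-fold higher (log2 1.39, SE 0.28, adjusted p = 0.00675) and Gpc6 2.19-fold higher (log2 1.13, SE 0.30, adjusted p = 0.0194). These 2 of 7 tested members passed a 2-fold call, beside 2.91% of all genes called higher, and none was called lower, beside 1.71%. Gpc6 met the minimum of 1 FPKM only through the line where it was higher, here and in FAK-R454 and KMF against FAK KO. In β-catenin ΔGSK it was not tested. The counts and medians that include Gpc6 therefore depend on its direction and are given as a description.

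At any fold, 4 of 7 members were higher (15.6% of all genes) and 2 of 7 were lower (25.2%). Sdc1 was 1.67-fold higher (log2 0.74, SE 0.10, adjusted p = 0.00136), and Sdc2 was 1.55-fold higher (log2 0.63, SE 0.12, adjusted p = 0.0049). Gpc4 was 1.66-fold lower (log2 -0.74, SE 0.08, adjusted p = 0.000378), and Sdc4 was 1.15-fold lower (log2 -0.20, SE 0.06, adjusted p = 0.0397). For Gpc1 the 95% interval of the log2 difference ran from -0.20 to 0.35. The samples of the lines did not overlap for 6 of 7 members, beside 56.1% of all genes. With Gpc6 counted, the median change was 0.63 for the members, and it was -0.08 for all genes.

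Without FAK-WT replicate 3 no member passed the 2-fold call: the log2 change was 1.00 for Sdc3 (adjusted p = 0.000547, limma) and 0.78 for Gpc6 (adjusted p = 0.0295), both still past the adjusted p. Gpc4 was then at -0.65 (adjusted p = 0.000187), Sdc1 at 0.62 (adjusted p = 0.000783) and Sdc2 at 0.51 (adjusted p = 0.00576), and Gpc1 at -0.07 did not pass. The Gpc6 call was also lost without FAK KO replicate 1 (adjusted p = 0.0541) and without FAK KO replicate 3 (adjusted p = 0.0628). Sdc4 lost its call under median-of-ratios scaling (log2 -0.13, adjusted p = 0.145) and when any single sample was left out, in 11 of 15 alternatives in all. Sdc2 lies on chromosome 15, where the median change of 479 tested genes was 0.30, against -0.09 for genes elsewhere, and Ptk2 is on the same chromosome. With each chromosome centred on its own median, the Sdc2 change was 0.33 (adjusted p = 0.0944) and the Sdc4 change -0.03 (adjusted p = 0.77).

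**Figure D4:**
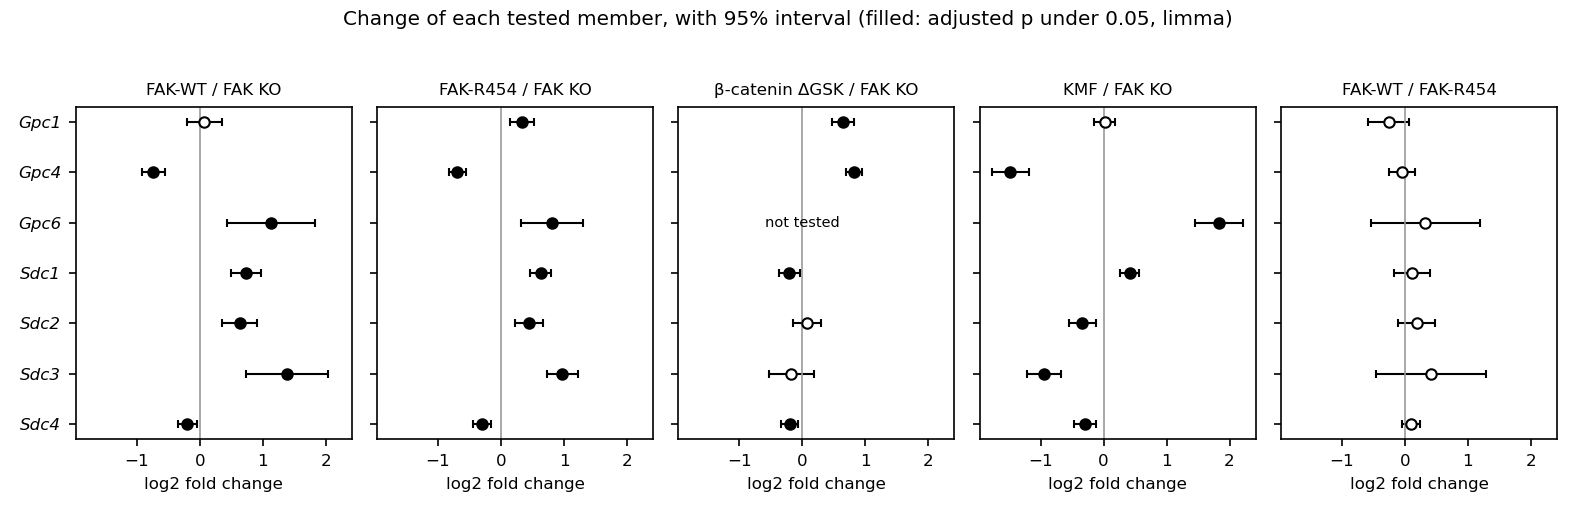
Log2 fold change of FPKM + 0.1 for each tested member in the 5 comparisons, with its 95% interval from limma; filled points passed an adjusted p of 0.05. Gpc4 is to the left of 0 for FAK-WT, FAK-R454 and KMF against FAK KO and to the right for β-catenin ΔGSK, and all intervals of FAK-WT against FAK-R454 cross 0.

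FAK-R454 was set against the same FAK KO samples, so its values share those controls and are given beside the ones above. Each of the 7 tested members differed from FAK KO at the adjusted p, 5 higher with Gpc6 counted (9.78% of all genes) and 2 lower (9.89%), and none reached the 2-fold call, beside 1.93% of genes called higher and 0.812% called lower. Sdc3 was 1.96-fold higher (log2 0.97, SE 0.11, adjusted p = 0.000816), Sdc1 1.55-fold higher (log2 0.63, SE 0.07, adjusted p = 0.00107) and Gpc4 1.61-fold lower (log2 -0.69, SE 0.06, adjusted p = 0.00026). The samples did not overlap for any of the 7 members, beside 55.1% of all genes. The median change was 0.44 for the members, with Gpc6 counted, and -0.03 for all genes.

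Smaller or less precise changes were those of Gpc6 (log2 0.80, SE 0.21, adjusted p = 0.0349, limma), Sdc2 (log2 0.44, SE 0.10, adjusted p = 0.0168), Gpc1 (log2 0.33, SE 0.08, adjusted p = 0.0252) and Sdc4 (log2 -0.30, SE 0.07, adjusted p = 0.0168). These 4 calls were lost when either FAK-R454 sample was left out, which leaves 1 sample in the line and takes the spread from FAK KO alone, and 3 were lost without FAK KO replicate 3. With all samples kept, Gpc1 and Gpc6 also lost their calls in 1 fit of all 5 lines (adjusted p = 0.0528 and 0.0866, limma), under a replicate block (0.0601 and 0.0965) and with no filter on low values (0.0682 and 0.0659). Gpc1 was lost without the trend (0.0636) and Sdc2 with no filter (0.0517). Without FAK KO replicate 2, 1 member, Sdc3, passed the 2-fold call, as it did without FAK-R454 replicate 1, a fit with 1 sample in that line. With each chromosome centred, Sdc2 was at 0.29 (adjusted p = 0.095) and Sdc4 at -0.21 (adjusted p = 0.0753).

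FAK-WT was also compared directly with FAK-R454, which lacks kinase activity. The lines differed in Ptk2 mRNA too, with means of 43.4 FPKM in FAK-WT and 62.4 in FAK-R454. Kinase activity, this level and the separate derivation of the lines cannot be told apart here. No member differed at an adjusted p of 0.05 (0 of 7 with limma and 0 of 7 with limma-voom on the recovered fragments), beside 3.38% of all genes higher and 4.44% lower. At an unadjusted p of 0.05, 0 of 7 did, beside 26.9% of all genes. The 2-fold call was met by 0.696% of all genes in the higher direction and 0.747% in the lower. The intervals leave room for differences: the 95% interval of the log2 difference ran from -0.46 to 1.29 for Sdc3, from -0.54 to 1.196 for Gpc6 and from -0.59 to 0.07 for Gpc1. It was narrower for Gpc4, from -0.25 to 0.17, and for Sdc4, from -0.04 to 0.25. Only Sdc2 did not overlap between the lines, beside 48.5% of all genes, with a log2 difference of 0.19 (adjusted p = 0.361), or 0.07 (adjusted p = 0.245) without FAK-WT replicate 3. Without FAK-WT replicate 3, Gpc1 was lower in FAK-WT (log2 -0.40, adjusted p = 0.000371, limma) and Sdc4 was higher (log2 0.14, adjusted p = 0.0379).

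Active β-catenin in the knockout clone was set against the same FAK KO samples, and both abundant glypicans were higher. Gpc4 was 1.77-fold higher than in FAK KO (log2 0.82, SE 0.06, adjusted p = 5.24e-06, limma) and Gpc1 was 1.57-fold higher (log2 0.65, SE 0.08, adjusted p = 0.000141). Sdc1 was 1.15-fold lower (log2 -0.20, SE 0.07, adjusted p = 0.0357), as was Sdc4 (log2 -0.20, SE 0.06, adjusted p = 0.0165). Sdc2 and Sdc3 did not pass, with 95% intervals from -0.15 to 0.30 and from -0.53 to 0.18. Of 6 members tested, 2 were higher (23.7% of all genes) and 2 lower (34.4%), none at 2-fold (5.13% and 6.99%), and 4 did not overlap (64.2%). The members' median change, which leaves Gpc6 out, was -0.05, against -0.09 for all genes.

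Gpc6 was not tested here because it was under 1 FPKM in both lines; with no filter on low values its log2 change was -0.98 (SE 0.25, adjusted p = 0.0206, limma). Median-of-ratios scaling moved the median of all genes from -0.09 to 0.02, and the calls of Sdc1 (adjusted p = 0.294) and Sdc4 (adjusted p = 0.206) were then lost. Genes of the X chromosome, where Gpc4 lies, had a median change of -0.30, and with each chromosome centred Gpc4 passed the 2-fold call. Without β-catenin ΔGSK replicate 1, Gpc4 was at 0.83 (adjusted p = 1.58e-05, limma) and Gpc1 at 0.66 (adjusted p = 0.000316), and the call of Sdc1 was lost (adjusted p = 0.0559). In all, the Sdc1 call was lost in 8 of 15 alternatives and the Sdc4 call in 4 of 15.

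KMF against FAK KO compares the parental line with 1 knockout clone, so the loss of FAK and the choice of the clone cannot be told apart, and it uses the same FAK KO samples again. KMF had 2.79-fold less Gpc4 (log2 -1.48, SE 0.13, adjusted p = 3.25e-05, limma) and 3.56-fold more Gpc6 (log2 1.83, SE 0.17, adjusted p = 4.99e-05). These were the 1 of 7 members called higher (3.97% of all genes) and the 1 of 7 called lower (4.04%) at 2-fold, and none was called higher when a mean above 5 FPKM was asked for, which leaves Gpc6 out. Sdc1 was higher in KMF (log2 0.42, SE 0.07, adjusted p = 0.000947). Sdc3 (log2 -0.95, SE 0.12, adjusted p = 0.000271), Sdc2 (log2 -0.34, SE 0.09, adjusted p = 0.0157) and Sdc4 (log2 -0.29, SE 0.08, adjusted p = 0.0122) were lower. The Sdc2 call was lost without KMF replicate 2 (adjusted p = 0.0592, limma), and the Sdc4 call without KMF replicate 1 (adjusted p = 0.0547) or 2 (adjusted p = 0.0545).

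At any fold, 2 of 7 members were higher (23.1% of all genes) and 4 of 7 lower (28.7%), and 6 did not overlap (60.8%). The members' median, with Gpc6 counted, was -0.29 and that of all genes -0.05. Gpc1 did not pass (95% interval -0.15 to 0.18). Sdc2 and Sdc3 were thus below FAK KO in the parental line and above it in both lines with re-expressed FAK. Without KMF replicate 3, Gpc4 was at -1.31 (adjusted p = 2.42e-06, limma), Gpc6 at 1.70 (adjusted p = 0.000177) and Sdc3 at -1.05 (adjusted p = 0.000134), so Sdc3 then passed the 2-fold call, as it did without FAK KO replicate 3.

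Other genes of the heparan sulfate pathway were read from 6 lists. Over all genes tested, the shares called higher and lower at 2-fold against FAK KO were 2.91% and 1.71% for FAK-WT, 1.93% and 0.812% for FAK-R454, 5.13% and 6.99% for β-catenin ΔGSK and 3.97% and 4.04% for KMF, and 0.696% and 0.747% for FAK-WT against FAK-R454. In lists of 6 to 12 genes, such shares amount to less than 1 gene. Among 12 tested genes that polymerise and modify the chains, Hs6st2, a 6-O-sulfotransferase, had the clearest pattern. It had 21.2, 16.1 and 19.7 FPKM in FAK KO, 4.59, 5.27 and 3.73 in KMF, 4.88, 4.92 and 4.13 in FAK-WT, 12.9 and 13.5 in FAK-R454 and 8.03, 6.84 and 7.92 in β-catenin ΔGSK. FAK KO was above every other line, and the ranges of FAK-WT and KMF overlapped. The log2 change against FAK KO was -2.00 for FAK-WT (adjusted p = 2.32e-05, limma), -0.51 for FAK-R454 (adjusted p = 0.0176), -1.31 for β-catenin ΔGSK (adjusted p = 2.28e-05) and -2.05 for KMF (adjusted p = 8.92e-06). FAK-WT was also lower than FAK-R454 (log2 -1.49, adjusted p = 0.0024). Without FAK-WT replicate 3 these changes were -1.92 against FAK KO (adjusted p = 4.07e-05) and -1.41 against FAK-R454 (adjusted p = 9.76e-06). Hs6st2 ends 371 kb before the Gpc4 span on chromosome X and is the nearest tested gene on that side.

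Of those 12 genes, 0 were called higher at 2-fold in each of the 5 comparisons. Called lower were 1 for FAK-WT, 0 for FAK-R454, 2 for β-catenin ΔGSK and 1 for KMF against FAK KO, and 1 for FAK-WT against FAK-R454. The second call in β-catenin ΔGSK was Extl1, an exostosin-like glycosyltransferase (1.17 FPKM in FAK KO and 0.347 in β-catenin ΔGSK, log2 -1.53, adjusted p = 0.000526, limma). Of these lines only FAK KO was above 1 FPKM, so Extl1 could only have been called lower. Among 10 tested genes of the linkage region and precursors, the only 2-fold call was Papss1, which makes the sulfate donor PAPS, at 141 ± 4.1 FPKM (SD, n = 3) in FAK KO and 39.1 ± 1.7 (n = 3) in β-catenin ΔGSK (log2 -1.85, adjusted p = 7.7e-08).

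Among 10 tested genes that edit or degrade the chains, 1 was called higher in FAK-WT, 0 in FAK-R454, 2 in β-catenin ΔGSK and 2 in KMF against FAK KO, and 1 was called lower in KMF. Hpse, the heparanase that cleaves heparan sulfate, had 2.43, 2.39 and 2.15 FPKM in FAK KO and 6.51, 7.55 and 10.3 in FAK-WT (log2 1.74, adjusted p = 0.000197, limma; 1.55 without replicate 3). It had 11.6, 11.4 and 7.84 FPKM in β-catenin ΔGSK (log2 2.08, adjusted p = 7.51e-06) and 8.98, 8.76 and 11.1 in KMF (log2 1.99, adjusted p = 2.93e-06). FAK-R454 was between, with 4.01 and 4.07 FPKM (log2 0.77, adjusted p = 0.00287). Sulf2, an extracellular 6-O-endosulfatase, was at 53.0 ± 1.6 FPKM in FAK KO, 108 ± 1.4 in β-catenin ΔGSK (log2 1.03, adjusted p = 1.44e-06) and 183 ± 19 in KMF (log2 1.78, adjusted p = 1.38e-06; SD, n = 3 each). Its paralog Sulf1 was lower in KMF (log2 -1.30, adjusted p = 6.33e-06).

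Of the genes that release glypicans or shed syndecans, 9 were tested in each comparison except FAK-R454 against FAK KO, with 8. Called at 2-fold were Notum, a secreted Wnt deacylase that was first described as a glypican-releasing enzyme, in FAK-WT (log2 1.19, adjusted p = 0.00359, limma; 1.31 without replicate 3) and in β-catenin ΔGSK (log2 3.97, adjusted p = 2.75e-07). Gdpd2, a membrane glycerophosphodiesterase, was at 64.3 ± 3.3 FPKM in FAK KO and lower in β-catenin ΔGSK (18.5 ± 1.7, log2 -1.79, adjusted p = 5.27e-07) and KMF (19.5 ± 3.2, log2 -1.73, adjusted p = 7.4e-06; SD, n = 3 each). Notum was under 1 FPKM in FAK KO (0.821) and in FAK-R454 (0.957), so it was tested only through a line where it was higher, and its calls could go in 1 direction only. In β-catenin ΔGSK, Gdpd5, a related enzyme (log2 1.02, adjusted p = 0.00135), and the metalloproteinase Adamts1 (log2 1.13, adjusted p = 0.00142) were higher, and Adamts1 fell just short of 2-fold without replicate 1 (log2 1.00). No 2-fold call fell in FAK-R454 against FAK KO or in FAK-WT against FAK-R454. Without FAK-WT replicate 3, Notum passed the 2-fold call against FAK-R454 (log2 1.09, adjusted p = 0.00214), and without KMF replicate 3 it did in KMF against FAK KO (log2 1.04, adjusted p = 0.00449).

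**Figure D5:**
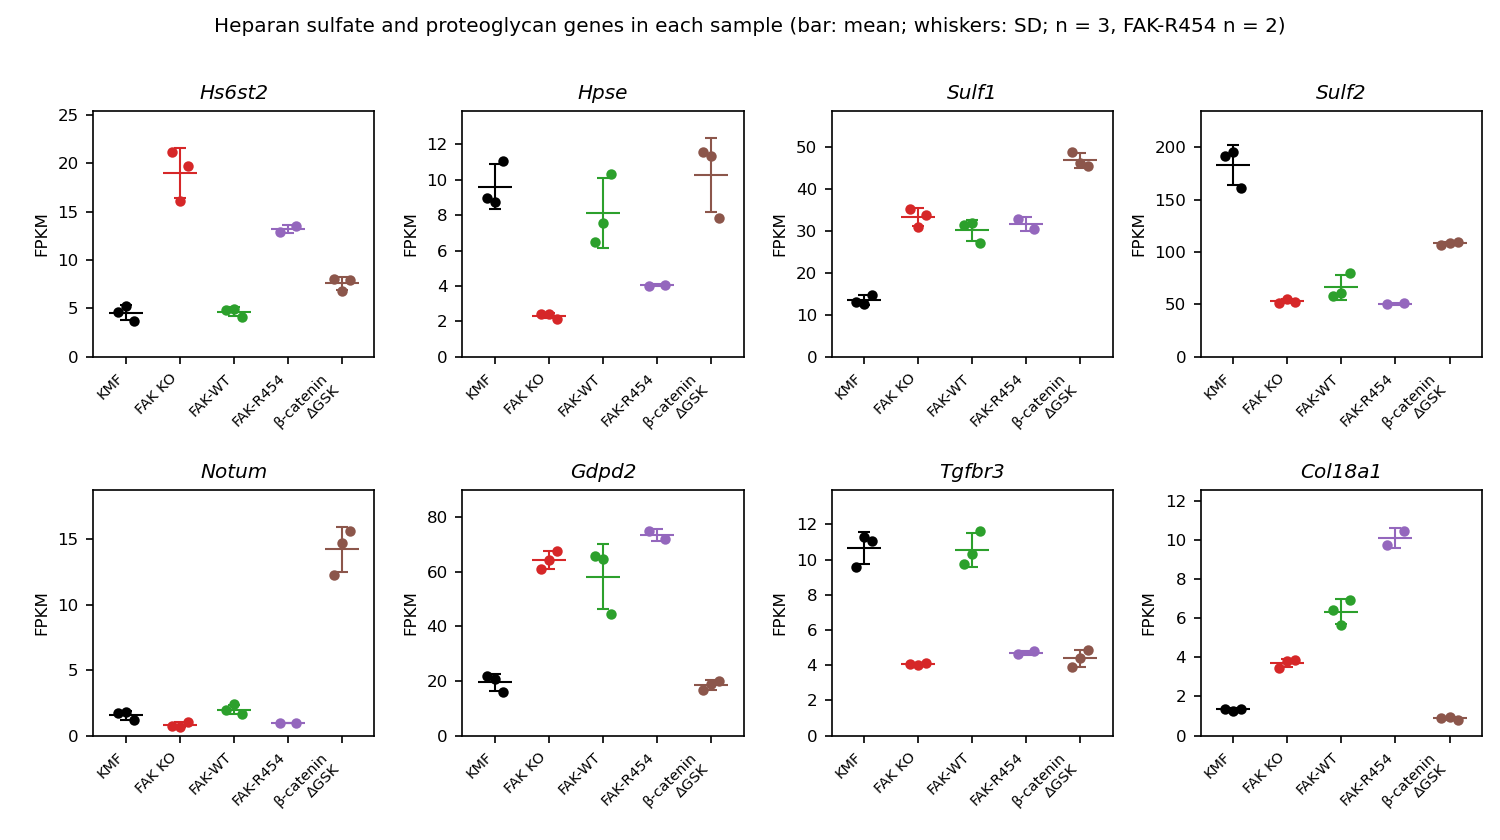
FPKM (linear axes from 0) of 8 heparan sulfate and proteoglycan genes in each of the 14 samples, by line; points are samples, bars are means and whiskers SD (n = 3, FAK-R454 n = 2). Hs6st2 is highest in FAK KO and Hpse lowest there, and Tgfbr3 is near 10 FPKM in KMF and FAK-WT (9.60 to 11.6 over both) and lower in the other lines.

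Of 7 other heparan sulfate or part-time proteoglycans, 6 were tested. Tgfbr3 (betaglycan), a TGF-β co-receptor that carries heparan sulfate chains, had 4.09, 4.001 and 4.11 FPKM in FAK KO and 9.73, 10.3 and 11.6 in FAK-WT (log2 1.35, adjusted p = 3.44e-05, limma; 1.28 without replicate 3). FAK-R454, with 4.61 and 4.79 FPKM, was close to FAK KO (log2 0.20, adjusted p = 0.139) and below FAK-WT (log2 of FAK-WT over FAK-R454 1.15, adjusted p = 0.00357). KMF was higher than FAK KO as well (log2 1.36, adjusted p = 5.09e-06). Col18a1, the core protein of a basement membrane proteoglycan, was higher in FAK-R454 (log2 1.42, adjusted p = 9.9e-05) and lower in β-catenin ΔGSK (log2 -1.96, adjusted p = 3.17e-06) and KMF (log2 -1.41, adjusted p = 1.56e-05). In β-catenin ΔGSK it averaged 0.879 FPKM, under the minimum that it met through FAK KO. None of the 6 tested cytoplasmic partners of syndecans was called at 2-fold in any of the 5 comparisons. At any fold, 4 of 6 were lower in β-catenin ΔGSK, beside 34.4% of all genes, and in KMF 2 were higher (23.1%) and 1 lower (28.7%). In FAK-WT and in FAK-R454 against FAK KO, 1 of 6 was higher (15.6% and 9.78% of all genes).

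The genes whose pattern over the 14 samples was most like that of each member, by Pearson correlation of log2(FPKM + 0.1) among 12256 genes above 1 FPKM in at least 1 line, are given as a description, since samples of a line move together. They were Abhd2 (0.985) and Aox3 (0.984) for Gpc4, Ptgfrn (0.993) and Bok (0.988) for Gpc6 and Gys1 (0.948) and Efna2 (0.937) for Gpc1. Mocs1 (0.980) and Rarg (0.969) were most like Sdc1, and Rnf145 (0.990) and Kctd11 (0.952) most like Sdc2. Kctd11 (0.986) and Lrrc75b (0.964) were most like Sdc3. Sdc4, the flattest member, had lower best values, with Gpam (0.899) and D5Ertd579e (0.898).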

How the data were processed

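RNA from the 14 samples was enriched for poly(A) and sequenced as unstranded-kit libraries (NEBNext Ultra). The authors deposited FPKM values per gene, normalised to gene length and to the fragments assigned to genes. The study's methods name TopHat2, whereas the submitters' processing notes list CASAVA 1.8, STAR 2.5, DESeq2 and mm10; the counting tool and its strand setting are not given in the sources used here, so overlapping and antisense reads could not be told apart. Multiplying FPKM by gene length and by the depth of the library recovered whole fragments for 100% of values (tolerance 0.01).

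Pairs of lines were compared with limma 3.58.1 (R 4.3.3; lmFit and eBayes with trend) on log2(FPKM + 0.1), on genes with a mean FPKM above 1 in at least 1 line, with Benjamini-Hochberg adjustment over all genes tested. A 2-fold call needed a log2 change of 1 or more in size, an adjusted p under 0.05 and, in the line with more message, FPKM averaging above 1. The procedure was run on simulated data for FAK-WT and FAK-R454 against FAK KO only. The simulated replicates were independent and none lay apart, so that run cannot show how the p-values behave with the samples that lay apart here. Named are all 10 members; of each pathway list, genes called in at least 1 comparison (at most 4 per list and comparison); and the 2 most correlated genes per member. Markers of other cell types, Ptk2 and Ctnnb1 served as checks. The members and lists were chosen with earlier results of these data known. Promoters are from RefSeq (GRCm38.p6), and figures were drawn with matplotlib 3.10.9.

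Alternatives were a pseudocount of 1, no filter or a mean FPKM above 5, median-of-ratios scaling, limma without trend, 1 fit of all 5 lines, limma-voom on recovered fragments, a replicate block, each chromosome centred, and leaving out each sample.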

Additional observations from a re-analysis of the deposited data

How the results depend on the processing

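Of 34 fold changes of members, 23 passed the adjusted p, and these kept their direction under each of the alternatives run; 12 also stayed past it in each of them. Of 492 alternative values, 50 lost and 4 gained a call and 14 changed sign. With a pseudocount of 1, members called higher in FAK-WT against FAK KO went from 2 to 1, and genes called higher and lower went to 174 and 99 (FAK-WT), 108 and 37 (FAK-R454), 274 and 292 (KMF), with 535 lower for β-catenin ΔGSK, and 26 and 50 for FAK-WT against FAK-R454. With a mean FPKM above 5, fewer genes were tested: 1 member was called higher in FAK-WT and 0 in KMF, and the genes called were 151 and 98, 89 and 40, 236 and 223, 350 and 432, and 26 and 39 in the same order. Without a filter, 4 members passed in FAK-R454 against FAK KO. In β-catenin ΔGSK, 2 members passed under median-of-ratios scaling and 2 with chromosomes centred, where 1 passed the 2-fold call.

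Samples were not paired by number in the main tests. Same-numbered deviations from the mean of the line correlated at -0.21 to -0.05 for FAK-WT and 0.08 to 0.45 for β-catenin ΔGSK against FAK KO. In β-catenin ΔGSK, replicates 1 and 2 were most like the FAK KO sample of the same number, and replicate 3 was most like FAK KO replicate 2. With a replicate block, 2 members passed in FAK-WT against FAK-R454, where FAK-WT replicate 3 has no partner: Gpc1 (-0.40) and Sdc4 (0.14). In that comparison Gpc4 changed sign under scaling (0.0017), chromosome centring (0.0854) and the block (0.0366), and Gpc6 (-0.0276) and Sdc1 (-0.0052) did under the block. Gpc1 in KMF was -0.18 with chromosomes centred. None of these sign changes was past the threshold, and the cause was not tested.

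Leaving out 1 sample at a time gave 0 to 2 members called higher in FAK-WT against FAK KO. In FAK-R454 against FAK KO it gave 0 to 1 members called higher, 3 to 7 members at the adjusted p and 148 to 256 genes called higher. In β-catenin ΔGSK it gave 2 to 4 members at the adjusted p. FAK-WT against FAK-R454 gave 0 to 2 members at the adjusted p, 4 to 109 genes called higher and 3 to 111 lower, and KMF gave 1 to 2 members called lower. Gpc1 ran from -0.0652 to 0.1513 in FAK-WT and from -0.0329 to 0.0861 in KMF against FAK KO, and Sdc2 from -0.0021 to 0.166 in β-catenin ΔGSK. In FAK-WT against FAK-R454, Gpc4 ran from -0.0975 to 0.0366, Gpc6 from -0.0276 to 0.5847 and Sdc1 from -0.0052 to 0.1992, the change of sign being without FAK-WT replicate 3. Leaving out a FAK-R454 sample leaves 1, assumed to vary like the other line. Depth limits Gpc3 and Gpc5, and it limits Gpc6 most in β-catenin ΔGSK, with 30 to 56 fragments. In FAK-WT, Gpc6 varied between samples, with 491 fragments in replicate 3 and 188 and 217 in replicates 1 and 2. Having 2 samples limits FAK-R454. For pathway genes, leaving out the samples that lay apart was chosen after seeing the data.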
